A study of Oryza sativa with 8 samples.

Results

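The 34 loci described here are members of the rice WRKY family of transcription factors, taken as a fixed list of locus identifiers from the MSU release 7 gene models. All 34 are listed in both count tables, which hold 55986 gene models each. The tables pair no identifier with a gene name, so each locus is called by its identifier and no individual role is given. WRKY proteins bind short promoter elements called W boxes through a zinc-finger domain that carries the WRKY amino acid motif. In plants the family is best known for control of responses to wounding, pathogens and insects, with some members activating defence genes and others repressing them, and many members are themselves switched on within hours of attack. Loss or excess of single members is known to alter resistance in rice, and other members act in growth, senescence and nutrient responses.

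RNA was sequenced from stem tissue of 2 rice lines, SM and SM92, which the labels describe as susceptible and tolerant to yellow stem borer. The larvae of this moth tunnel inside rice stems. Field-grown plants either received larvae on their tillers at the booting stage or were left uninfested, and stems were taken 72 hours later. The labels list 8 samples, with 2 infested and 2 uninfested in each line, and no further allele or agent. They do not say whether samples are single plants, how many plants a sample holds, or how SM92 is related to SM, so p-values measure only the spread between these libraries, which may be technical. No locus could be matched to a named stem marker, so the labelled tissue was not checked against markers.

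The columns of the tables carry library names, which are Y1, Y2, Y5 and Y6 in the SM table and Y3, Y4, Y7 and Y8 in the SM92 table. These names show neither infestation nor replicate. The line of each library is therefore known from its table, but its infestation state is not, and the comparisons of infested with uninfested stems were not made. All values below are given by library, and the only comparison is SM92 against SM with the 4 libraries of each line together. Each line has by its labels the same mix of infested and uninfested plants, so a difference between the lines is an average over both states.

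Depth ranged from 50540724 to 57603629 counted read pairs per library. Libraries with consecutive numbers were closer to each other than to the rest of their line. Over genes with at least 50 reads in a pair, the chi-square per gene, which is near 1 for sampling noise alone, was 1.66 for Y7 and Y8, 1.93 for Y3 and Y4, and 3.31 for Y5 and Y6. It was 104.9 for Y1 and Y2, and between 278.4 and 374.9 for every other pair within a line. Each library was counted, since all these pairs differed by more than sampling noise. That difference cannot show whether consecutively numbered libraries come from separate plants, and it may be technical. The 4 libraries of a line do not spread like 4 independent draws, as the 4 against 4 test assumes, and whether its p-values are too small or too large cannot be told here. A fit with consecutively numbered libraries summed, 2 against 2, is therefore given beside the calls. In bulk stem tissue, fewer cells of a type and less RNA per cell cannot be told apart.

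The WRKY transcripts spanned a very wide range of levels in the stem, and 2 loci stood above all others. Levels are in CPM, the read pairs of a locus scaled to a common library size. On the scale of CPM per kilobase of gene model, introns included, LOC_Os02g08440 had the highest median level, 435.7. LOC_Os05g27730 followed at 214.8. LOC_Os01g60600, LOC_Os01g54600 and LOC_Os06g44010 came next with medians of 49.9, 48.4 and 45.8 CPM per kilobase, and their library ranges overlapped widely. By level per kilobase, 11 loci were above the 90th percentile of the 24892 genes that passed the filter on low counts, and the median WRKY locus was at percentile 62.6.

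**Figure D1:**
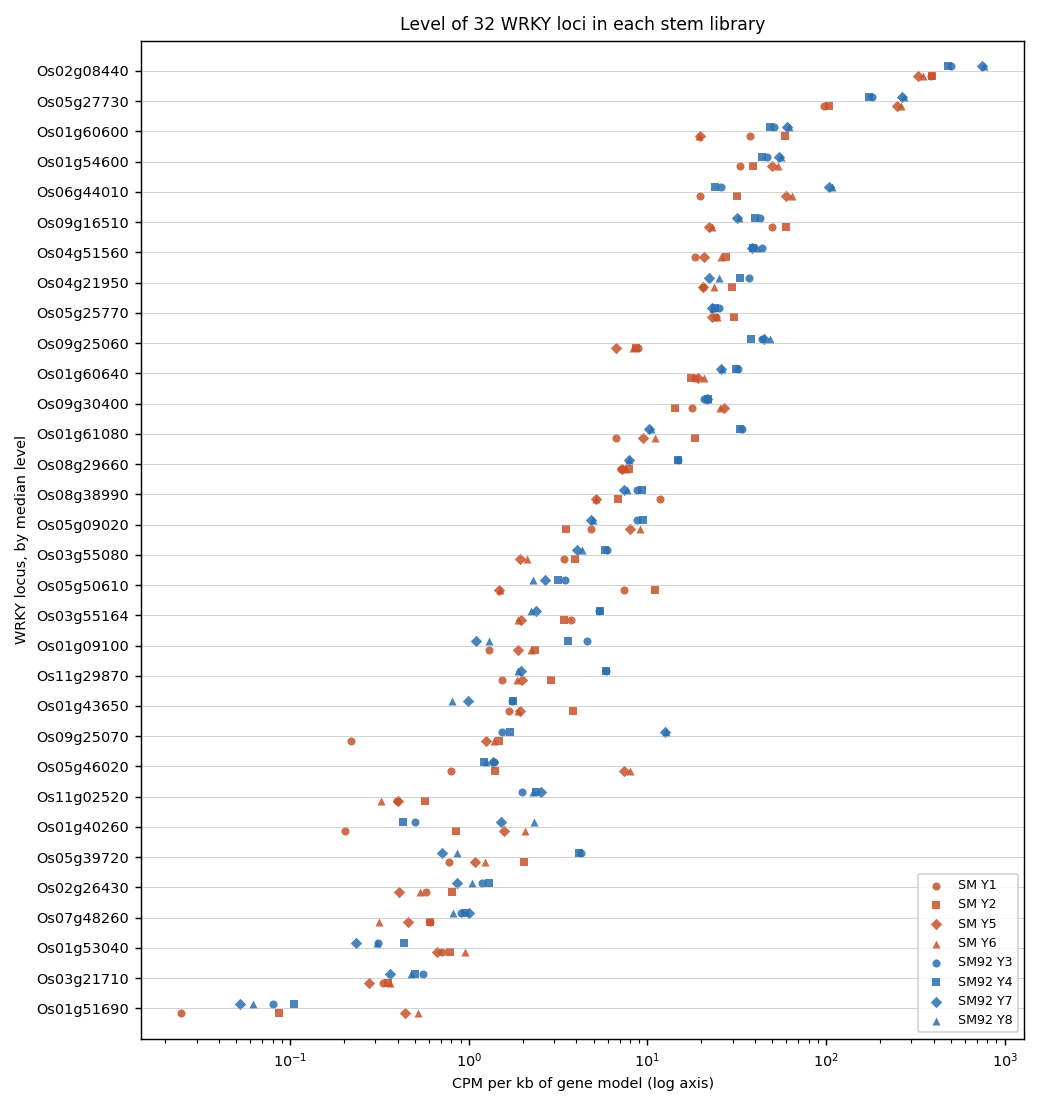
CPM per kilobase of gene model (log axis) of the 32 WRKY loci that passed the filter, ordered by median level, with 1 point per library; SM libraries are orange and SM92 libraries blue. LOC_Os02g08440 lies between 328.2 and 768.7 in every library, while the lowest locus, LOC_Os01g51690, lies between 0.025 and 0.52.

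In CPM, not corrected for length, LOC_Os02g08440 (chromosome 2, 4542762 to 4544983, plus strand) read 858.9, 866.7, 729.2 and 772.7 in SM libraries Y1, Y2, Y5 and Y6. In SM92 libraries Y3, Y4, Y7 and Y8 it read 1111, 1069, 1660 and 1708 CPM. Every SM92 library was above every SM library, and Y7 and Y8 were the highest of all. LOC_Os05g27730 (chromosome 5, 16150266 to 16152747, plus strand) read 242.6, 257.7, 620.3 and 654.7 CPM in the SM libraries. Its SM92 values of 446.2, 433.1, 659.1 and 674.3 CPM overlapped those of SM. Y5 and Y6 of SM lay beside Y7 and Y8 of SM92, and Y1 and Y2 were lowest.

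The other 3 of the 5 most abundant loci overlapped between the lines. LOC_Os01g60600 read 106.0, 165.0, 55.4 and 54.6 CPM in SM libraries Y1, Y2, Y5 and Y6. In SM92 it read 144.0, 136.5, 170.4 and 174.6 CPM, so only Y2 of the SM libraries reached the SM92 range. LOC_Os01g54600 kept to a narrower band, with 65.2, 76.9, 98.5 and 105.8 CPM in SM. Its SM92 libraries Y3, Y4, Y7 and Y8 read 92.6, 86.7, 108.0 and 110.9 CPM, and the groups overlapped. LOC_Os06g44010 read 35.3, 56.3, 106.8 and 115.3 CPM in SM, and 45.9, 42.7, 184.8 and 192.9 CPM in SM92. Its high libraries were Y5 and Y6 in SM and Y7 and Y8 in SM92.

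By mean CPM over the 8 libraries, 3 loci were at 100 or more, 16 between 10 and 100, 11 between 1 and 10, and 4 under 1. Of the last group, 2 did not pass the filter. LOC_Os01g60490 had 5, 0, 20 and 19 reads in SM libraries Y1, Y2, Y5 and Y6 and 2, 1, 3 and 1 in SM92 libraries Y3, Y4, Y7 and Y8. LOC_Os12g02450 had 1, 3, 11 and 10 reads in SM and 15, 18, 1 and 4 in SM92. Both were at the edge of detection and went into no test. LOC_Os01g51690 passed, with Y5 and Y6 its only libraries near 1 CPM, at 0.053, 0.19, 0.94 and 1.11 CPM in SM and 0.17, 0.22, 0.11 and 0.13 CPM in SM92. Its log2 fold change was -1.82 (SE 0.85, edgeR adjusted p = 0.132). It was -2.19 without Y1 (edgeR adjusted p = 0.0319) and -1.29 without Y6 (0.310).

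SM92 stems held more RNA than SM stems from 9 WRKY loci and less from 1, at an adjusted p under 0.05 in edgeR's quasi-likelihood test of 4 against 4 libraries. That is 10 of the 32 tested members, or 31.3%, beside 36.0% of all 24892 genes tested, so the family was not called more often than genes in general. The 9 called higher in SM92 are 28.1% of the members tested, beside 16.5% of all genes, and the 1 called lower is 3.13%, beside 19.5% of all genes. In the 2 against 2 fit the only member called was LOC_Os09g25060, which is 3.03% of the 33 members tested there, beside 2.43% of all genes. The median log2 fold change, SM92 over SM, was 0.50 over the 32 members and 0.00287 over all genes. It was positive at 25 members (78.1%, beside 50.2% of all genes). Scaling by total counts alone moved the median of all genes to -0.16 and that of the members to 0.35, with 23 members positive. Of the genes then called 32.1% were higher in SM92, against 45.7% otherwise.

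**Figure D2:**
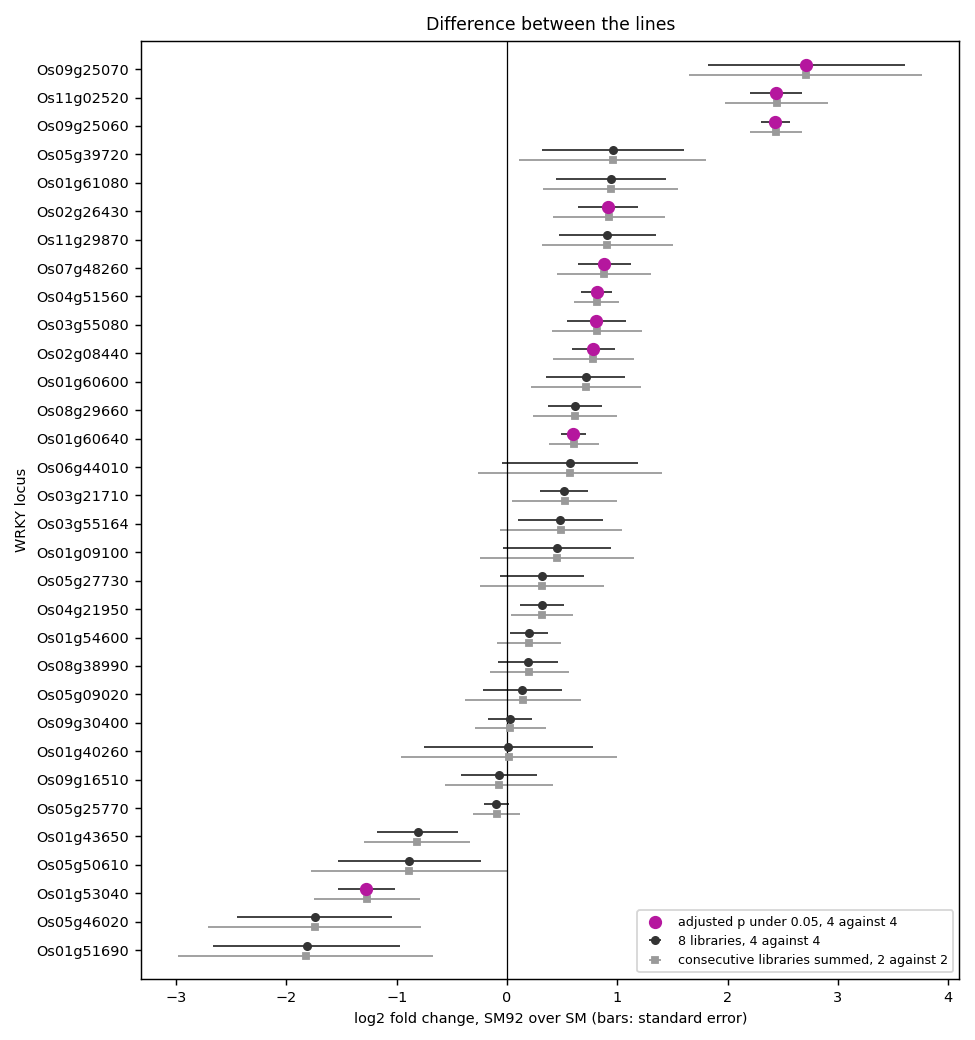
Log2 fold change of SM92 over SM (points) with its standard error (bars) for the 32 tested WRKY loci, from 8 libraries (black, or purple where the adjusted p is under 0.05) and from consecutively numbered libraries summed (grey squares). The 3 loci at the top lie between 2.43 and 2.72, and LOC_Os01g53040 at -1.27 is the only purple point below 0.

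The same 10 loci were those whose libraries did not overlap between the lines. All 4 SM92 libraries were above all 4 SM libraries at 9 of the 32 tested members, beside 19.4% of all genes tested. They were all below at 1 member, beside 21.2% of all genes. The remaining 22 members overlapped.

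The clearest difference was at LOC_Os09g25060, on chromosome 9 from 14975932 to 14977713 on the minus strand. It read 15.8, 15.4, 11.9 and 14.8 CPM in SM libraries Y1, Y2, Y5 and Y6, a mean of 14.5 ± 1.78 (SD, n = 4). In SM92 libraries Y3, Y4, Y7 and Y8 it read 77.7, 67.8, 80.6 and 86.8 CPM, a mean of 78.2 ± 7.93 (SD, n = 4). Within each line the libraries were alike, and the lowest SM92 library lay far above the highest SM library. SM92 was 5.40-fold higher (log2 fold change 2.43, SE 0.13, edgeR adjusted p = 1.14e-05). With consecutive libraries summed the adjusted p was 0.0298 in edgeR, and leaving out any single library kept the call.

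LOC_Os11g02520 was also well separated between the lines, at a much lower level. This locus, on chromosome 11 from 782358 to 783511 on the minus strand, read 0.46, 0.66, 0.46 and 0.37 CPM in SM. In SM92 it read 2.30, 2.76, 2.94 and 2.64 CPM, and no SM library came near. The log2 fold change was 2.44 (SE 0.24, edgeR adjusted p = 0.000183), and the 2 against 2 fit gave an edgeR adjusted p of 0.0808.

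LOC_Os09g25070 (chromosome 9, 14992803 to 14994888, minus strand) had the highest fold change of the family but rested on 2 libraries. It read 0.46, 3.06, 2.62 and 2.89 CPM in SM. In SM92 it read 3.21 and 3.56 CPM in Y3 and Y4 against 26.1 and 26.6 CPM in Y7 and Y8. The lines did not overlap, yet Y3 and Y4 lay just above 3 of the SM libraries, and Y1 stood low. The log2 fold change was 2.72 (SE 0.90, edgeR adjusted p = 0.0466). The call held in only 2 of the 8 fits that left out 1 library, where edgeR's adjusted p reached 0.106, and the 2 against 2 fit gave 0.242.

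**Figure D3:**
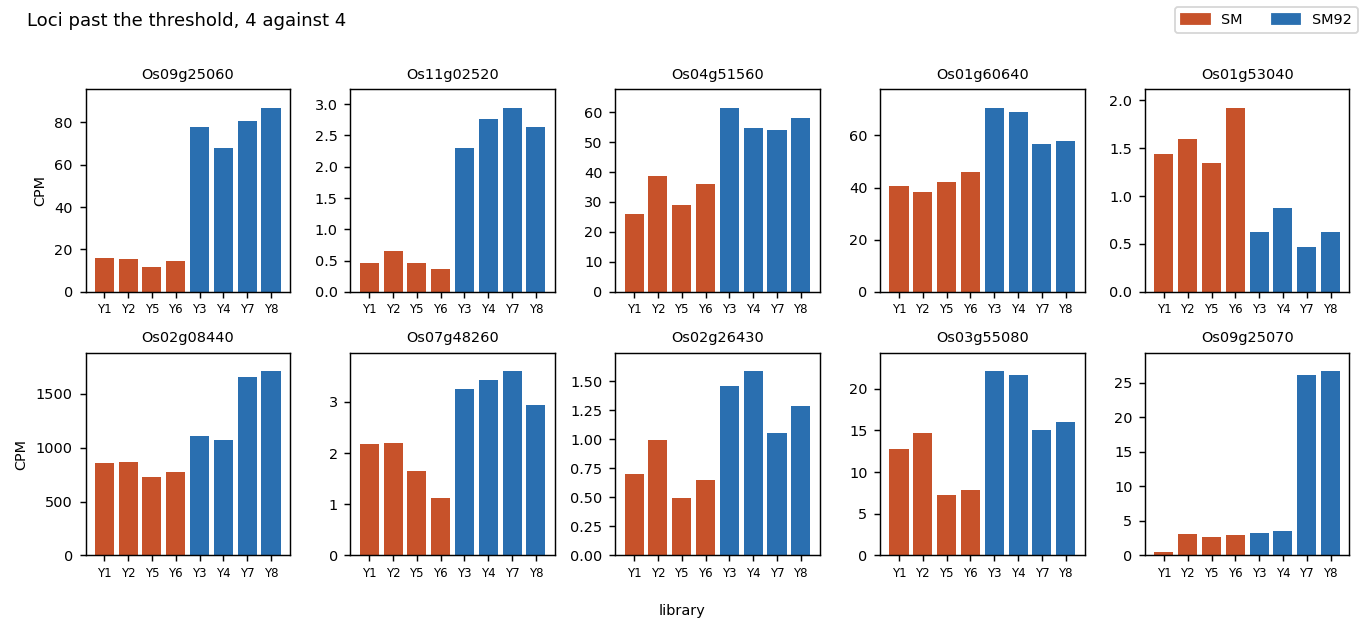
CPM in each library (bars; SM orange, SM92 blue) for the 10 WRKY loci past the threshold in 4 against 4 libraries, each panel with its own axis from 0. In every panel all bars of one colour are taller than all bars of the other; LOC_Os09g25060 differs little within each line, while LOC_Os09g25070 is tall in Y7 and Y8 alone.

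Among the better expressed loci, 2 more differed modestly and evenly. LOC_Os04g51560 read 26.1, 38.7, 29.1 and 36.0 CPM in SM and 61.5, 54.6, 53.9 and 57.9 CPM in SM92. The SM92 libraries lay within a narrow band above all of SM, and the log2 fold change was 0.81 (SE 0.14, edgeR adjusted p = 0.00313). LOC_Os01g60640 read 40.6, 38.5, 42.3 and 46.0 CPM in SM and 70.6, 68.9, 56.8 and 57.8 CPM in SM92. Here Y3 and Y4 were the higher SM92 libraries, and the log2 fold change was 0.60 (SE 0.11, edgeR adjusted p = 0.00419). For the most abundant locus, LOC_Os02g08440, whose values are given above, the log2 fold change was 0.78 (SE 0.20, edgeR adjusted p = 0.0159). These 3 calls held whichever library was left out, and in the 2 against 2 fit edgeR's adjusted p was 0.119, 0.229 and 0.312 respectively.

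LOC_Os03g55080 read 12.8, 14.7, 7.22 and 7.87 CPM in SM and 22.1, 21.6, 15.01 and 16.0 CPM in SM92. The lines did not overlap but came close, since Y7 was only just above Y2. Its log2 fold change was 0.81 (SE 0.27, edgeR adjusted p = 0.0466), and the call held in only 1 of the 8 fits that left out 1 library, with adjusted p up to 0.110.

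The other 3 called loci were scarce. LOC_Os07g48260 read 2.18, 2.19, 1.66 and 1.13 CPM in SM and 3.25, 3.43, 3.59 and 2.93 CPM in SM92 (log2 fold change 0.88, SE 0.24, edgeR adjusted p = 0.0222). LOC_Os02g26430 read 0.70, 0.99, 0.50 and 0.65 CPM in SM and 1.46, 1.59, 1.06 and 1.29 CPM in SM92 (log2 fold change 0.92, SE 0.27, edgeR adjusted p = 0.0308). Both were higher in all SM92 libraries, and at LOC_Os02g26430 the lowest SM92 library, Y7, came close to Y2 of SM. Their calls held in 4 and 2 of the 8 fits that left out 1 library, with adjusted p up to 0.0599 and 0.0841. The third, LOC_Os01g53040, was the only member called lower in SM92, with 1.44, 1.60, 1.34 and 1.92 CPM in SM and 0.63, 0.88, 0.47 and 0.62 CPM in SM92. Its log2 fold change was -1.27 (SE 0.26, edgeR adjusted p = 0.00603), and it was called whichever library was left out. In the 2 against 2 fit these 3 loci had edgeR adjusted p of 0.326, 0.384 and 0.231, in the order named, and LOC_Os03g55080 had 0.345. The more abundant LOC_Os07g48270 lies 215 bases from LOC_Os07g48260 on the same strand, with means of 7.72 CPM in SM and 14.8 CPM in SM92. It was also called higher (log2 fold change 0.94, edgeR adjusted p = 0.00111, and 0.13 with libraries summed). Whether its reads add to the counts of LOC_Os07g48260 was not tested.

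Many WRKY loci differed strongly among the libraries of a single line. The ratio of the highest to the lowest library was 1.98 at the median member in SM, beside 1.69 for all tested genes, and 1.54 in SM92, beside 1.45. It was over 2-fold at 15 of the 32 members in SM (46.9%, beside 37.4% of all tested genes) and at 9 in SM92 (28.1%, beside 26.5%). These ratios are on the log2 scale with 0.5 reads added and were not tested, since the states of the libraries are not known here.

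Among members with a mean of 1 CPM or more, the 5 with the widest span within a line show several shapes. LOC_Os05g46020 read 1.39 and 2.42 CPM in SM libraries Y1 and Y2 but 12.8 and 13.8 CPM in Y5 and Y6. In SM92 libraries Y3, Y4, Y7 and Y8 it was flat at 2.39, 2.13, 2.38 and 2.18 CPM. The high values were thus seen in 2 SM libraries and in none of SM92, and the difference between the lines did not pass the threshold (log2 fold change -1.74, SE 0.70, edgeR adjusted p = 0.0891). Leaving out single libraries moved it from -2.09 without Y1 (edgeR adjusted p = 0.0237) to -1.29 without Y6 (0.218). It also passed without Y2 (0.0496) and in DESeq2 (0.0264), and the 2 against 2 fit gave 0.385. LOC_Os05g50610 was also uneven in SM alone, but with Y1 and Y2 high, at 29.8 and 44.7 CPM against 5.98 and 6.02 CPM in Y5 and Y6. Its SM92 libraries read 13.9, 12.8, 10.8 and 9.28 CPM, between the SM values.

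LOC_Os05g39720 showed its range in SM92, with 12.7 and 12.4 CPM in Y3 and Y4 against 2.11 and 2.55 CPM in Y7 and Y8. In SM it read 2.32, 6.06, 3.23 and 3.67 CPM, with Y2 highest. LOC_Os01g40260 varied in both lines, with 0.26, 1.09, 2.05 and 2.68 CPM in SM and 0.65, 0.56, 1.95 and 2.997 CPM in SM92. Its log2 fold change between the lines was 0.011 (SE 0.77), because the lines covered the same range. The remaining one of the 5 is LOC_Os09g25070, described above.

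**Figure D4:**
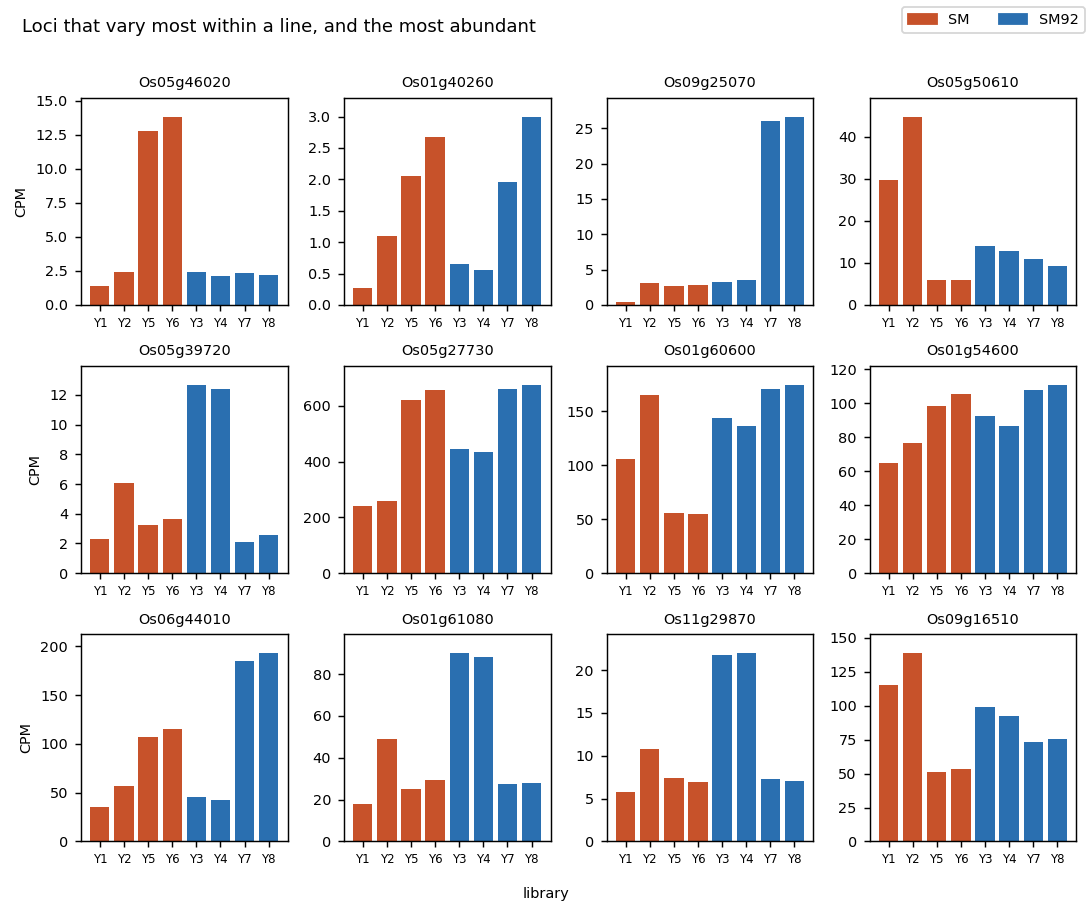
CPM in each library (bars; SM orange, SM92 blue; every axis starts at 0) for the 5 WRKY loci with the widest span within a line at a mean of 1 CPM or more, the most abundant loci not shown before, and 3 further loci over 10 CPM with wide spans. Bars of Y5 and Y6, of Y3 and Y4, and of Y7 and Y8 are mostly alike, while Y1 and Y2 often differ. The tall pair in SM92 is Y3 and Y4 at LOC_Os05g39720, LOC_Os01g61080 and LOC_Os11g29870 but Y7 and Y8 at LOC_Os09g25070 and LOC_Os06g44010.

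Several members shared the shape of LOC_Os05g39720 in SM92. LOC_Os01g61080 read 90.01 and 88.1 CPM in Y3 and Y4 against 27.4 and 27.9 CPM in Y7 and Y8. Its SM libraries Y1, Y2, Y5 and Y6 read 17.8, 49.1, 25.1 and 29.6 CPM, again with Y2 highest. LOC_Os11g29870 read 21.8, 22.0, 7.32 and 7.04 CPM in SM92 and 5.72, 10.8, 7.40 and 6.99 CPM in SM. LOC_Os01g09100 read 4.44, 3.47, 1.06 and 1.24 CPM in SM92 and 1.25, 2.26, 1.81 and 2.15 CPM in SM. LOC_Os08g29660 read 35.3 and 35.3 CPM in Y3 and Y4 against 18.6 and 18.7 CPM in Y7 and Y8, while SM stayed between 16.9 and 18.8 CPM. At all these loci Y7 and Y8 of SM92 lay at or near the SM range and Y3 and Y4 above it. None of these 5 passed the threshold between the lines in edgeR with all libraries, with log2 fold changes from 0.45 to 0.96. LOC_Os08g29660 passed without Y7 or without Y8 (edgeR adjusted p = 0.0437 and 0.0451) and in DESeq2 (0.0470), while the other fits that left out 1 library gave up to 0.199 and the 2 against 2 fit 0.430.

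LOC_Os09g16510 was high in Y1 and Y2 of SM, at 115.1 and 138.8 CPM against 50.9 and 53.2 CPM in Y5 and Y6. In SM92 it read 98.8 and 92.7 CPM in Y3 and Y4 against 73.4 and 75.6 CPM in Y7 and Y8. LOC_Os08g38990 was set apart by Y1 alone, at 47.2 CPM, with the other SM libraries between 20.6 and 27.3 CPM and SM92 between 29.6 and 37.1 CPM. When Y1 was left out it was called higher in SM92 (log2 fold change 0.53, edgeR adjusted p = 0.0327), against 0.19 with all libraries (edgeR adjusted p = 0.616) and 0.058 without Y5 (0.899). LOC_Os01g60600 likewise depended on Y2, and leaving it out gave a log2 fold change of 1.12 (edgeR adjusted p = 0.0168) in place of 0.72 (0.158), while leaving out Y6 gave 0.52 (0.301). In the 2 against 2 fit these loci had edgeR adjusted p of 0.801 and 0.487.

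The values of 5 further members follow. LOC_Os05g25770 read 53.5, 67.7, 50.9 and 54.5 CPM in SM and 55.8, 53.4, 51.2 and 51.6 CPM in SM92, with a log2 fold change of -0.10 (SE 0.11). LOC_Os04g21950 kept between 38.7 and 56.1 CPM in SM and between 41.9 and 70.3 CPM in SM92. LOC_Os09g30400 kept between 61.7 and 115.9 CPM in SM and between 89.6 and 94.8 CPM in SM92, so SM92 was the even line here. LOC_Os03g21710 stayed under 1.24 CPM in all libraries. LOC_Os05g09020 ranged from 4.9999 to 12.9 CPM in SM and from 6.90 to 13.4 CPM in SM92.

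Over the family, the libraries with the highest and the lowest value in their line were counted at each of the 32 tested members. In SM, Y2 was highest at 18 members (56.3%, beside 31.7% of all tested genes), Y6 at 10, Y1 at 3 and Y5 at 1. Over all tested genes Y6, Y1 and Y5 were highest at 21.2%, 25.6% and 21.5%. Y1 was lowest at 14 members, Y5 at 11, Y6 at 4 and Y2 at 3, beside 21.1%, 22.9%, 22.6% and 33.4% of all tested genes. In SM92, Y3 was highest at 13 members, Y8 at 9, Y4 at 8 and Y7 at 2, beside 26.5%, 23.3%, 24.6% and 25.6% of all tested genes. Y7 was lowest at 16 (50%, beside 25% of all tested genes). The members' summed share of all counts was lowest in Y1 (0.197%) and highest in Y6 (0.232%) among the SM libraries, and lay between 0.259% in Y4 and 0.311% in Y8 in SM92. LOC_Os02g08440 and LOC_Os05g27730 alone made up 54.4% to 68.0% of the members' reads, so the share mostly describes these 2 loci.

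The 34 loci lie on 11 chromosomes, with 10 on chromosome 1 and 6 on chromosome 5, and 17 on each strand. Their gene models span 962 to 7661 bases with a median of 2222, beside 2393 for all gene models. Members lay close together in 3 stretches of the genome. On chromosome 9, LOC_Os09g25060 and LOC_Os09g25070 lie on the same strand with 15089 bases and no gene model between them. On chromosome 1, LOC_Os01g60490, LOC_Os01g60600 and LOC_Os01g60640 are separated by 47063 and 27412 bases, with 9 and 3 gene models between. On chromosome 3, LOC_Os03g55080 and LOC_Os03g55164 are 64463 bases apart, with 8 gene models between.

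The neighbours on chromosome 9 were both higher in SM92 but with different shapes, one varying little within each line and the other high in Y7 and Y8 only. Within 100 kilobases of the middle of this pair, 11 other genes were tested and 4 were called, 2 higher and 2 lower in SM92, with log2 fold changes from -2.66 to 1.90 and a median of -0.024. The gene model 545 bases from LOC_Os09g25060, LOC_Os09g25050 on the opposite strand, was alike in the lines, with means of 10.5 CPM in SM and 10.3 CPM in SM92 (log2 fold change -0.024, edgeR adjusted p = 0.875). On the other side, LOC_Os09g25090, 14201 bases from LOC_Os09g25070 on the same strand, was called higher in SM92. Its means were 81.1 CPM in SM and 141.0 CPM in SM92 (log2 fold change 0.80, edgeR adjusted p = 0.0119, and 0.231 with libraries summed). On chromosome 1, LOC_Os01g60600 and LOC_Os01g60640 were both well expressed while LOC_Os01g60490 was nearly undetected, and 6 of 13 other tested genes around them were called, 3 in each direction. On chromosome 3, LOC_Os03g55164 read 28.5, 26.0, 15.1 and 14.4 CPM in SM and 40.8, 41.5, 18.2 and 17.0 CPM in SM92. Like LOC_Os03g55080 it was higher in Y1 and Y2 than in Y5 and Y6, and in Y3 and Y4 than in Y7 and Y8, and around this pair 5 of 23 other tested genes were called, 1 higher and 4 lower. Over all tested genes 36.0% were called, and whether these stretches depart from that share was not tested. With libraries summed, edgeR called 1 other gene over the 3 stretches, on chromosome 1, beside 2.43% of all genes in that fit.

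**Figure D5:**
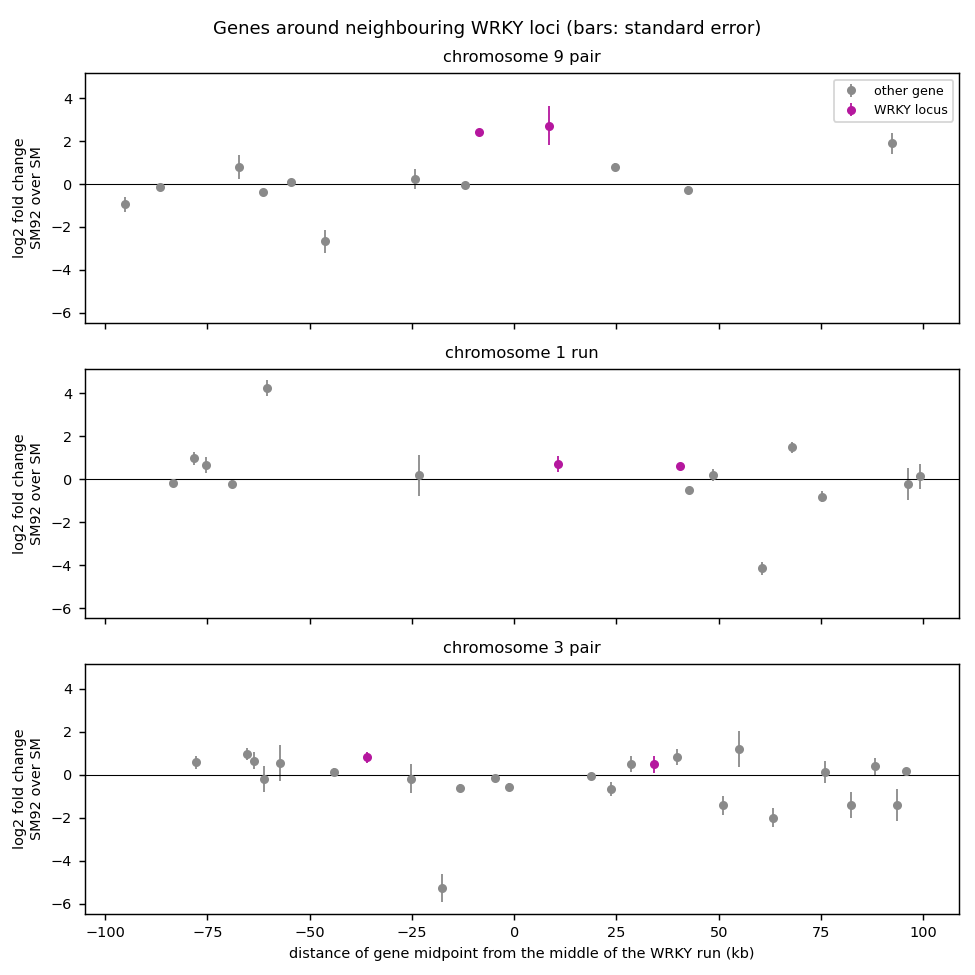
Log2 fold change of SM92 over SM with standard error (bars) for WRKY loci (purple) and other tested genes (grey) by distance in kilobases from the middle of each of 3 WRKY runs. The chromosome 9 pair lies at 2.43 and 2.72 while the other genes around it lie between -2.66 and 1.90, with a median of -0.024. On chromosome 1 the WRKY loci lie at 0.72 and 0.60, within the range of the other genes, -4.15 to 4.25. On chromosome 3 they lie at 0.81 and 0.48, also within the range of the other genes, -5.27 to 1.19.

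The 2 gene models on each side of every member gave 131 neighbours that are not members, of which 70 were tested. Of these, 26 were called (37.1%, beside 36.0% of all tested genes), 11 higher and 15 lower in SM92. With libraries summed 4 of them were called, beside 662 of all 27222 genes tested in that fit (2.43%). At 2 members the gene model overlaps that of an antisense neighbour, and the stranded counting alone keeps their reads apart. LOC_Os01g60640 shares 1272 bases with LOC_Os01g60650, which was lower in SM92 (39.9 CPM in SM, 28.7 CPM in SM92, log2 fold change -0.48, edgeR adjusted p = 0.0306), the opposite direction to the member, but not in the 2 against 2 fit (0.382). LOC_Os08g29660 shares 1765 bases with LOC_Os08g29669 (25.3 and 19.5 CPM, log2 fold change -0.37, edgeR adjusted p = 0.0387, and 0.455 with libraries summed). Strand does not separate close neighbours on the same strand, such as LOC_Os07g48270 and LOC_Os07g48260, described above. LOC_Os03g55150, 508 bases from LOC_Os03g55164 on the same strand, had means of 187.0 CPM in SM and 261.4 CPM in SM92. Its log2 fold change was 0.48 (edgeR adjusted p = 0.345), beside 0.48 (0.363) at LOC_Os03g55164. Whether reads of such neighbours add to the members' counts was not tested. The 4 neighbours called with libraries summed were all neighbours of members that were not called, and 2 were higher and 2 lower in SM92. LOC_Os11g29890, 7709 bases from LOC_Os11g29870, had means of 0.017 CPM in SM and 3.44 CPM in SM92. LOC_Os01g43620, 16683 bases from LOC_Os01g43650, had means of 0.063 and 2.15 CPM. Another gene model lies between each of these and its member. LOC_Os05g50624, near LOC_Os05g50610, had means of 48.04 CPM in SM and 1.54 CPM in SM92, and LOC_Os09g16520, 210 bases from LOC_Os09g16510, had means of 11.8 and 0.41 CPM. In the order named, edgeR's adjusted p with libraries summed was 0.0322, 0.0466, 0.0210 and 0.0408.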

How the data were processed

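Stranded total RNA libraries depleted of ribosomal RNA were made from rice stems, per the labels' protocols. The deposited counts are read pairs per gene model, made by the authors with featureCounts 2.0.0 on MSU release 7 models with strand option 2, introns included, per the file headers. The submitters' processing notes also name FastQC, Trim Galore, STAR and DESeq2, with no version. The other deposited columns hold gene positions and lengths. Samples were grouped by line, through the table that the labels tie to it. The 3 planned contrasts of infestation were not run because column names show no infestation state. Counts were tested with edgeR 4.0.16 in R 4.3.3 (TMM, filterByExpr, robust quasi-likelihood fit, Benjamini-Hochberg over all genes tested, threshold 0.05), and the code was tested on simulated counts. Standard errors are the log2 fold change over the square root of F. CPM uses TMM-scaled library sizes. Alternatives were DESeq2 1.42.0, other scalings, no filter, leaving out each library and, added after seeing the data, summing consecutively numbered libraries. None of the 34 identifiers matched the 39387 RefSeq genes, so no names or sequences were attached. Values in every library are given for called members, the 5 most abundant, the 5 with the widest span within a line at a mean of 1 CPM or more, and members in runs of neighbours; further members shown in full were chosen after their values were seen. Other genes named overlap a member, lie close to one on the same strand, or lie near the chromosome 9 pair. The rest were called among the neighbours with libraries summed. These choices were made after their values were seen. Members and rules were chosen with earlier results of these data known.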

Additional observations from a re-analysis of the deposited data

Results flagged for a closer look

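In each line the highest and lowest library of every member with 10 or more reads in at least 1 library of the line were compared with the other 3, and 1 of 67 groups of 4 libraries had a library set far apart, where chance gives about 1 in 20 for independent values, which these libraries are not. LOC_Os01g43650 read 10.6 CPM in SM library Y2, while the other SM libraries lay between 4.68 and 5.40 CPM. In SM92 it read 4.86, 4.94, 2.74 and 2.24 CPM in Y3, Y4, Y7 and Y8. Its log2 fold change of SM92 over SM was -0.81 (SE 0.37, edgeR adjusted p = 0.122). The called member LOC_Os09g25070 came just under the limit in SM. Its Y1 read 0.46 CPM, while the other SM libraries lay between 2.62 and 3.06 CPM.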

How the results depend on the processing

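No paired analysis was possible because library names give no replicate number. With all libraries, 10 of 32 tested members and 8962 of 24892 genes were called. Scaling by total counts gave 6 members and 9126 genes, so calls fell among members but not over all genes. Leaving out 1 library each gave 6 (without Y5) to 11 members and 7268 to 9612 genes. Summing consecutively numbered libraries gave 1 of 33 members and 662 of 27222 genes. DESeq2 called 12 of 32 members and 10981 of 24892 genes. DESeq2 size factors gave 10 members and 9017 genes, and no filter 7 of 34 members and 9350 of 44672 genes. LOC_Os09g25070, LOC_Os02g26430 and LOC_Os03g55080 lost their calls with total counts and with no filter, and LOC_Os07g48260 with total counts. Signs turned only at uncalled members. LOC_Os01g40260 went from 0.011 to -0.20 and LOC_Os09g30400 from 0.029 to -0.13 with total counts. Leaving out single libraries gave -0.53 to 0.43 at LOC_Os01g40260, -0.12 to 0.16 at LOC_Os09g30400, -0.15 to 0.00039 at LOC_Os05g25770, -0.060 to 0.36 at LOC_Os05g09020 and -0.27 to 0.22 at LOC_Os09g16510. The cause was not tested. Depth limits LOC_Os01g60490 and LOC_Os12g02450, with 51 and 63 reads in all.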
